A study of Mus musculus with 12 samples.

Results

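The genes described here are 9 apolipoproteins, Apoa1, Apoa2, Apoa4, Apoa5, Apob, Apoc1, Apoc2, Apoc3 and Apoe, and Mttp, which encodes the microsomal triglyceride transfer protein. They were picked by gene symbol from a table of liver expression in 12 mice, and they are 10 of its 23997 genes. Expression was given as FPKM, the fragments of a gene scaled to transcript length and to the size of the library. Tests covered the 10545 genes that averaged 1 FPKM or more, and all 10 members were among them. The study asked what dietary curcumin (CUR), the yellow polyphenol of turmeric, does in the liver of old mice on either of 2 diets. RNA came from the left lateral liver lobe of wild type male C57BL/6 mice, with 3 mice in each of 4 groups. The groups were HFHSD+CUR (a high-fat high-sugar diet with CUR), HFHSD (the same diet without CUR), NCD+CUR (a normal control diet with CUR) and NCD (that diet alone). The labels gave an age of 99 weeks for 10 mice and of 107 weeks for 2 mice, replicate 3 of NCD+CUR and replicate 3 of NCD. The labels do not tie mice to cages or days, so p-values measure the spread between these 12 samples only.

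Lipoproteins carry fat and cholesterol through the blood in a shell of phospholipid and apolipoproteins. In the liver, very low density lipoprotein (VLDL) is built on 1 molecule of apolipoprotein B, which takes up lipid in the endoplasmic reticulum with the help of Mttp, whereas high density lipoprotein (HDL) is built on apolipoproteins A-I and A-II. The small C apolipoproteins and apolipoprotein E move between particles, where they set how fast triglyceride is removed and how the remnants are taken up.

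Most of the apolipoprotein genes lie in clusters (mm10, GENCODE vM21 gene limits). Apoa1 (chr9:46228580-46230466), Apoc3 (chr9:46232933-46235636), Apoa4 (chr9:46240696-46243459) and Apoa5 (chr9:46268633-46271919) share 43.3 kb, and Apoc3 is the only one of them on the minus strand. Apoc2 (chr7:19671579-19677941), Apoc1 (chr7:19689481-19692660) and Apoe (chr7:19696109-19699188) share 27.6 kb of the minus strand. Apoa2 (chr1:171225054-171226379, plus), Apob (chr12:7977648-8016835, plus) and Mttp (chr3:138089854-138144968, minus) stand alone. Their transcripts differ widely in length. The transcript used for each gene (the annotated principal isoform) has 518 bases for Apoa2, 526 for Apoc3, 532 for Apoc1, 727 for Apoc2, 1035 for Apoa1, 1408 for Apoe, 1815 for Apoa4 and 2515 for Apoa5, against 3963 for Mttp and 13934 for Apob. Mttp and Apob are also the lowest of the 10 in GC content, at 45.9% and 43.5%, and the other members range between 51.9% for Apoa2 and 59.5% for Apoe. Apoc2 lies within a read-through gene of the same strand that GENCODE annotates (Gm44805), and Mttp overlaps Trmt10a by 1521 bases on the other strand. Reads of Apoc2 and Gm44805 could be split only if the UCSC annotation used by the authors holds both, which was not checked. Whether the counting used the strand was not given in the sources used here.

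The promoters of the short A genes and of the long Apob and Mttp are shown because these genes moved in opposite directions with CUR on HFHSD. RefSeq (GRCm38.p6) gave a window for 8 of the 10 members, of 250 bases before to 50 after the transcription start. Windows are written along the strand of the gene, and capitals mark a match to TATAAA, the core of the TATA box.
Apoa1 (chr9:46228380-46228679, plus): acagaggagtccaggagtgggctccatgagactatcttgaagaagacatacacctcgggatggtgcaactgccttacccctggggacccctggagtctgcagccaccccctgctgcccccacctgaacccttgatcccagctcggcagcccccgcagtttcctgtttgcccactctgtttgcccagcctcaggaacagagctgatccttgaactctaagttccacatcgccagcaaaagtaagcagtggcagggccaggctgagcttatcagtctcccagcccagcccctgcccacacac
Apoa2 (chr1:171224804-171225103, plus): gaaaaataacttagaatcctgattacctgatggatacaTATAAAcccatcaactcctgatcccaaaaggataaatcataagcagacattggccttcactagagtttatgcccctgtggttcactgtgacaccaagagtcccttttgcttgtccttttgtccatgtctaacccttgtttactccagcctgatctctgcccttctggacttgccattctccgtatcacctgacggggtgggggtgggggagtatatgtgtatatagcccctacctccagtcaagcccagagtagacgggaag
Apob (chr12:7977427-7977726, plus): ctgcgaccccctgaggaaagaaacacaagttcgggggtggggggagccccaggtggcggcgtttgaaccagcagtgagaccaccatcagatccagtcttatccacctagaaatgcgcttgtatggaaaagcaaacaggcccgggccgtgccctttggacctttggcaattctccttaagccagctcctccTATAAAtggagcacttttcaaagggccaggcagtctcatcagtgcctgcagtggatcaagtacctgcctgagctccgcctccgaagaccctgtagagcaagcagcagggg
Mttp (chr3:138143369-138143668, minus): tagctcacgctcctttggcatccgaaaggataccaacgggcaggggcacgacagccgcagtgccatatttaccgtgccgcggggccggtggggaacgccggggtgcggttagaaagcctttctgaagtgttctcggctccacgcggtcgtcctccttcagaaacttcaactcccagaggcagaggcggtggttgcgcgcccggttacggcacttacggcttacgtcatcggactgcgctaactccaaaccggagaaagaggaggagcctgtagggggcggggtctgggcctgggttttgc
Both strands were searched for TATAAA, for CAAAGTCCA and CAAAGGTCA, which are forms of the HNF4A site, and for GTTAAT, a part of the HNF1 site. Some genes have several starts, and the 8 members have 12 windows. TATAAA was in 5 of these 12 windows (of Apoa2, Apoa5, Apob and Apoe) and in 13.6% of the 32851 windows of all genes. The 2 windows of Apoa5 overlap and hold the same site. In Apob it began 60 bases before the start, and in Apoa2 212 bases before it. GTTAAT was in 2 of the 12 windows (of Apoc2 and Apoe), against 7.1% of all windows. Neither CAAAGTCCA (0.475% of all windows) nor CAAAGGTCA (0.478%) was in a window of these 8 members. These are matches of letters in a short window. Of the genes shown, the RefSeq starts of Apoa1, Apob and Mttp lie inside the genes as GENCODE draws them. The 60 bases given for Apob are counted from its RefSeq start.

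The libraries differed in a way that followed transcript length, and this touches every comparison of short with long genes. In each library, the 801 tested genes with transcripts under 1 kb were set against the 398 genes with transcripts over 8 kb, as the median deviation from the gene's mean over the 12 libraries (log2). Short genes stood above long genes by 0.27, 0.17 and 0.13 in the 3 HFHSD+CUR livers and below them in the 3 HFHSD livers, with differences of -0.16, -0.21 and -0.53. On NCD the differences were 0.19, 0.24 and 0.21 in the NCD+CUR livers, against -0.22, 0.35 and -0.45 in the NCD livers. All 6 CUR livers and NCD replicate 2 therefore leaned to short transcripts, and the other 5 livers leaned to long ones. The library of HFHSD+CUR replicate 3 correlated least with the rest (mean r of 0.952, against 0.963 to 0.969 for the other 11). Each library had 10192 to 10721 genes at 1 FPKM or more. In the authors' list of reads, HFHSD replicate 3 and NCD replicate 3 had the most mapped reads and the highest mapping rates. They were also the livers that leaned most to long transcripts. The part of depth or mapping in this lean was not tested, and mapped reads were not used in the fits. FPKM carries no counts per gene, so the counting error behind a value was not estimated.

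The livers expressed 4 of the 10 members at nearly the same very high level. Over the 12 mice, Apoe averaged 20904 FPKM, Apoa1 20526 FPKM, Apoc1 19942 FPKM and Apoa2 19635 FPKM, which made them the 2nd to the 5th most abundant of the 23997 genes per length of transcript. The SD over the 12 mice was 2522 FPKM or more for each of these genes, so their order was within their spread. Apoc3 followed with 6806 FPKM, then Apoa5 with 694, Apoc2 with 632 and Apoa4 with 604 FPKM, 3 means that lie within their spread of each other. Apob averaged 216 FPKM and Mttp 57.7 FPKM. Because FPKM is per length of transcript, Apob stands low in this order although its transcript is the longest of the 10. Together the 10 genes held 14.9% ± 0.774 of all summed FPKM in HFHSD+CUR livers and 11.5% ± 0.544 in HFHSD livers (SD, n = 3 each). The same share was 13.9% ± 0.550 in NCD+CUR livers and 12.02% ± 1.19 in NCD livers (SD, n = 3 each). Apoa4 varied most, with a 4.57-fold range over the 12 mice, against 1.51-fold to 2.15-fold for the other 9 members.

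**Figure D1:**
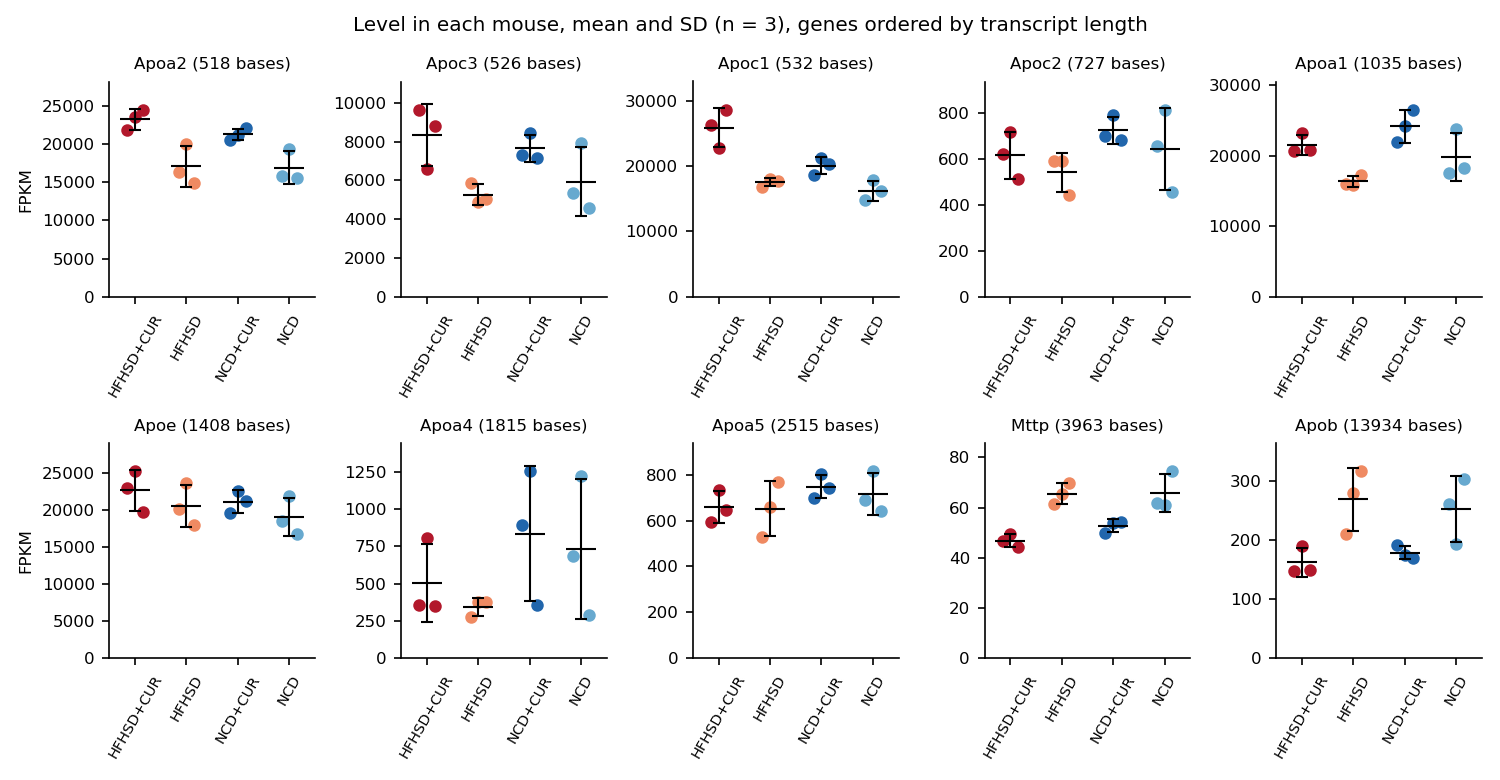
Level of each gene in FPKM (vertical axis, from 0) in the 12 mice, with 1 panel a gene from the shortest transcript to the longest. Points are mice, and bars give the mean and SD of the 3 mice of a group. In the panels of Apoa2, Apoc3, Apoc1 and Apoa1 the 3 HFHSD+CUR mice lie above the 3 HFHSD mice, and in those of Mttp and Apob they lie below them.

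Both structural genes of HDL rose with CUR on HFHSD. Apoa1, the main structural protein of HDL, was at 20643, 23248 and 20841 FPKM in HFHSD+CUR livers, against 16035, 15918 and 17326 FPKM in HFHSD livers. Every HFHSD+CUR liver was above every HFHSD liver, and the log2 fold change was 0.39 ± 0.13 (SE), which is 1.31-fold (adjusted p = 0.0539, limma with Benjamini-Hochberg adjustment, where calls were made under 0.1). Apoa2, the second protein of HDL, was at 21794, 23521 and 24522 FPKM in HFHSD+CUR livers, against 16294, 20033 and 14922 FPKM in HFHSD livers. These groups did not overlap either, with HFHSD replicate 2 the closest to the CUR livers, and Apoa2 rose 1.37-fold (log2 fold change 0.46 ± 0.13, adjusted p = 0.0314).

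Of the 3 C apolipoproteins, 2 rose with CUR on HFHSD. Apoc1, which hinders the uptake of remnants and inhibits cholesteryl ester transfer protein in species that have it, was at 26289, 22724 and 28681 FPKM in HFHSD+CUR livers, against 16832, 18048 and 17743 FPKM in HFHSD livers. It had the smallest p of the 10 members, with all 3 CUR livers above the others (1.47-fold, log2 fold change 0.56 ± 0.12, adjusted p = 0.0126). Apoc3, an inhibitor of lipoprotein lipase and of remnant uptake, was at 9660, 6592 and 8818 FPKM in HFHSD+CUR livers, against 5886, 4887 and 5038 FPKM in HFHSD livers. It showed the largest rise of the 10, 1.57-fold, again without overlap (log2 fold change 0.65 ± 0.19, adjusted p = 0.0348). Apoc2, the activator of lipoprotein lipase, was at 624, 716 and 512 FPKM in HFHSD+CUR livers, against 591, 592 and 445 FPKM in HFHSD livers. The Apoc2 groups overlapped, and the difference did not pass the test (0.18, 95% interval -0.24 to 0.61, adjusted p = 0.527). Apoc2 was higher with CUR in all 3 same-numbered pairs (adjusted p = 0.241 with a replicate block).

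The 2 genes at the start of VLDL assembly fell with CUR on HFHSD. Apob was at 147, 191 and 150 FPKM in HFHSD+CUR livers, against 211, 280 and 317 FPKM in HFHSD livers. The highest CUR liver, replicate 2, stayed below the lowest HFHSD liver, replicate 1, and Apob was at 0.608 of its HFHSD level (log2 fold change -0.72 ± 0.18, adjusted p = 0.0208). Mttp was at 46.9, 49.3 and 44.2 FPKM in HFHSD+CUR livers, against 61.3, 65.4 and 70.0 FPKM in HFHSD livers. All 3 CUR livers were below all 3 HFHSD livers, and the level with CUR was 0.715 of that without (log2 fold change -0.48 ± 0.12, adjusted p = 0.0161).

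The other 3 members did not pass the test. Apoe, the ligand of remnants for the LDL receptor and LRP1, was at 22975, 25325 and 19820 FPKM in HFHSD+CUR livers, against 20152, 23664 and 18042 FPKM in HFHSD livers (log2 fold change 0.14, 95% interval -0.17 to 0.45, adjusted p = 0.502). Apoa5, which promotes the lipolysis of triglyceride, was at 596, 733 and 648 FPKM in HFHSD+CUR livers and at 529, 659 and 770 FPKM in HFHSD livers (0.02, 95% interval -0.30 to 0.35, adjusted p = 0.922). In both genes the groups overlapped over most of their range, although Apoe was higher with CUR in all 3 same-numbered pairs (adjusted p = 0.249 with a replicate block). Apoa4, an apolipoprotein that liver and intestine make when much fat is exported, was at 355, 809 and 350 FPKM in HFHSD+CUR livers and at 274, 380 and 380 FPKM in HFHSD livers. A single liver, HFHSD+CUR replicate 2, stood far above the other 5, and the interval of the log2 fold change was wide (0.45, 95% interval -0.92 to 1.82, adjusted p = 0.626).

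In all, 4 of the 10 members rose with CUR on HFHSD and 2 fell, in a comparison in which 13.1% of all 10545 genes rose and 17.2% fell. The groups did not overlap, with CUR higher, for 4 members (17.9% of all genes) and, with CUR lower, for 2 members (22.8% of all genes). These are the genes that passed the test. The 2 of 10 that fell are close to the share of all genes. The median log2 fold change was 0.29 over the members and -0.03 over all genes tested. Without HFHSD+CUR replicate 3, the number of members called fell to 3 (Apoc1, Apob and Mttp, adjusted p = 0.066, 0.0896 and 0.0692) with 11.7% of all genes called, and Apoa1, Apoa2 and Apoc3 kept log2 fold changes of 0.42, 0.42 and 0.60 (adjusted p = 0.122, 0.118 and 0.13). Apoa1 also missed the threshold without HFHSD replicate 1 (adjusted p = 0.12), HFHSD replicate 2 (0.13) or HFHSD+CUR replicate 2 (0.122), Apoa2 without HFHSD replicate 3 (0.121), and Apoc3 without HFHSD replicate 3 (0.104) or HFHSD+CUR replicate 1 (0.105). Apob, Mttp and Apoc1 passed in all 12 fits that left out 1 mouse.

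When the trend of each library with transcript length and GC content was removed, the picture of the short genes changed. Apoa1, Apoa2, Apoc1 and Apoc3 then had log2 fold changes of 0.12, -0.02, 0.05 and 0.14 for HFHSD+CUR against HFHSD, and none passed the test (adjusted p = 0.459, 0.934, 0.755 and 0.507). Apob (-0.51, adjusted p = 0.0253) and Mttp (-0.31, adjusted p = 0.0507) still passed, as lower with CUR, in a setting where 14.8% of all genes fell and 11.4% rose. Apoc2 was then at -0.21 (adjusted p = 0.411), and with the replicate block added it passed as lower with CUR (adjusted p = 0.0955), in a fit that called 42.4% of all genes. Quantile normalization, which gives every library the same distribution of values, left calls for Apob (-0.73, adjusted p = 0.0206), Mttp (-0.42, adjusted p = 0.0218) and, of the short genes, Apoc3 (0.54, adjusted p = 0.0482), while Apoc1 was at -0.01 (adjusted p = 0.979). It gives each rank the same value in every library. Apoc1, Apoa1 and Apoa2 were among the most abundant genes, and the part of these fixed values in their smaller changes was not tested.

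**Figure D2:**
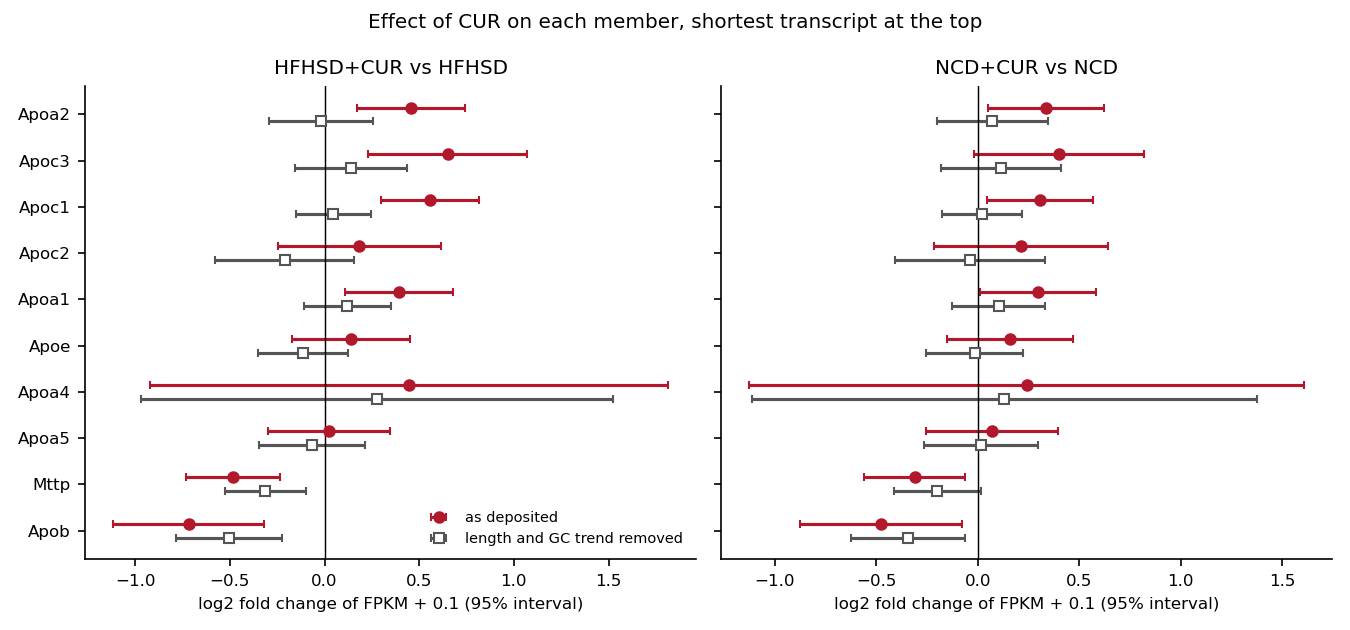
Log2 fold change of FPKM + 0.1 with its 95% interval (horizontal axis) for each gene, from the shortest transcript at the top to the longest at the bottom, for HFHSD+CUR against HFHSD (left) and NCD+CUR against NCD (right). Filled circles are from the deposited values and open squares from values with the length and GC trend removed. The squares of Apoa1, Apoa2, Apoc1 and Apoc3 lie close to 0 on HFHSD, and those of Apob and Mttp stay below it.

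On NCD, the 6 members called on HFHSD had log2 fold changes of the same sign and smaller size, and none passed the test. Of the 10 members, 0 rose and 0 fell at an adjusted p under 0.1 in limma, as did 0% of all genes in either direction. At an unadjusted p under 0.05, 3 members were higher with CUR (Apoa1, Apoa2 and Apoc1, against 6.83% of all genes) and 2 were lower (Apob and Mttp, against 7.17%). The groups did not overlap for 2 members with CUR higher (Apoa2 and Apoc1, against 9.53% of all genes) and for 2 with CUR lower (Apob and Mttp, against 10.1%).

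Apoa1 was at 21905, 24203 and 26568 FPKM in NCD+CUR livers, against 17581, 23768 and 18275 FPKM in NCD livers (log2 fold change 0.29 ± 0.13, adjusted p = 0.347). Apoa2 was at 20588, 21148 and 22067 FPKM in NCD+CUR livers, against 15878, 19354 and 15498 FPKM in NCD livers (0.34 ± 0.13, adjusted p = 0.302). In both genes NCD replicate 2 was the highest of the NCD livers and lay within or next to the CUR range. Apoc1 was at 18638, 21213 and 20358 FPKM in NCD+CUR livers, against 14779, 17847 and 16158 FPKM in NCD livers (0.31 ± 0.12, adjusted p = 0.302). Apoc3 was at 7300, 8475 and 7182 FPKM in NCD+CUR livers, against 5340, 7939 and 4555 FPKM in NCD livers (0.40 ± 0.19, adjusted p = 0.376). NCD replicate 2 was again the highest NCD liver in both, and for Apoc3 it overlapped the CUR livers.

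Apob was at 191, 175 and 170 FPKM in NCD+CUR livers, against 262, 193 and 304 FPKM in NCD livers (log2 fold change -0.48 ± 0.18, adjusted p = 0.302). Mttp was at 49.8, 54.0 and 54.4 FPKM in NCD+CUR livers, against 61.7, 61.0 and 74.5 FPKM in NCD livers (-0.31 ± 0.12, adjusted p = 0.298). NCD replicate 2 was the lowest NCD liver for both, and for Apob it missed the highest CUR liver narrowly. Without that mouse, 4 members passed with 8.53% of all genes: Apoa1 (0.43, adjusted p = 0.0677), Apoa2 (0.44, adjusted p = 0.083) and Apoc3 (0.63, adjusted p = 0.0665) as higher and Apob (-0.66, adjusted p = 0.068) as lower with CUR. When same-numbered mice of a diet were paired (a replicate block), 3 members passed on NCD with 8.16% of all genes, Apob (adjusted p = 0.0965), Apoc1 (0.0997) and Apoc3 (0.0912). With array weights, which let noisier libraries count less, 6 members passed (Apoa1, Apoa2, Apoc1 and Apoc3 as higher, Apob and Mttp as lower), with 33.2% of all genes called. With the length and GC trend removed, none of the 10 passed on NCD, and Apob was at -0.34 (adjusted p = 0.337).

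The other 4 members had intervals that included 0 on NCD, as they had on HFHSD. Apoe was at 19587, 22683 and 21313 FPKM in NCD+CUR livers and at 18623, 21914 and 16748 FPKM in NCD livers (log2 fold change 0.16, 95% interval -0.15 to 0.47). Apoc2 was at 701, 793 and 684 FPKM in NCD+CUR livers and at 658, 816 and 457 FPKM in NCD livers (0.21, 95% interval -0.22 to 0.64). Apoa5 was at 700, 802 and 743 FPKM in NCD+CUR livers and at 688, 816 and 642 FPKM in NCD livers (0.07, 95% interval -0.25 to 0.39). The groups overlapped in all 3 genes, and Apoe was higher with CUR in all 3 same-numbered pairs here too (adjusted p = 0.32 with a replicate block). Apoa4 was at 892, 1255 and 357 FPKM in NCD+CUR livers and at 688, 1223 and 288 FPKM in NCD livers (0.24, 95% interval -1.13 to 1.61). In both of these groups replicate 2 was the highest and replicate 3, the mouse labelled 107 weeks, the lowest. Apoa4 too was higher with CUR in all 3 same-numbered pairs on NCD (adjusted p = 0.472 with a replicate block).

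The effect of CUR was not shown to differ between the diets for any member. The difference of the log2 fold changes, on HFHSD minus on NCD, ranged over the 10 members between -0.24 for Apob and 0.25 for Apoc1 and Apoc3. None of the 10 passed in either direction (0% of all genes either way), with a smallest unadjusted p of 0.165, for Apoc1, while 0.882% of all genes were higher and 0.493% lower at an unadjusted p under 0.05. The 95% intervals were wide, between -0.12 and 0.62 for Apoc1 and between -0.80 and 0.32 for Apob.

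No member passed the test of diet. For HFHSD against NCD, 0 of the 10 rose (2.74% of all genes did) and 0 fell (1.87%), and none had an unadjusted p under 0.05 (10.2% of all genes did as higher and 8.44% as lower). Apoa1 came closest, with HFHSD livers at 15918 to 17326 FPKM and NCD livers at 17581 to 23768 FPKM, which did not overlap (log2 fold change -0.26 ± 0.13, adjusted p = 0.305). It was the 1 member whose groups did not overlap with HFHSD lower (10.3% of all genes), and 0 had HFHSD higher (12.5%). Apoa4 averaged 345 ± 61.0 FPKM in HFHSD livers and 733 ± 469 FPKM in NCD livers (SD, n = 3 each), with the lowest NCD liver inside the HFHSD range (-0.87 ± 0.61, adjusted p = 0.479). Without NCD replicate 3 the value was -1.43 (adjusted p = 0.15), and without NCD replicate 2 it was -0.39 (adjusted p = 0.846). With age as a covariate Apoa4 passed as lower in HFHSD livers (-1.41, adjusted p = 0.0313), in a fit whose age term rests on the 2 mice labelled 107 weeks and which called 19.3% of all genes. Apob and Mttp had log2 fold changes of 0.10 and 0.00068 for HFHSD against NCD (95% intervals -0.30 to 0.49 and -0.25 to 0.25). Among mice on CUR, HFHSD+CUR against NCD+CUR, 0 members rose (2.07% of all genes) and 0 fell (1.55%), and 1 had an unadjusted p under 0.05, as higher (8.82% of all genes, with 8.65% as lower). That gene was Apoc1, at 22724 to 28681 FPKM in HFHSD+CUR livers and 18638 to 21213 FPKM in NCD+CUR livers, without overlap (0.36 ± 0.12, adjusted p = 0.15). Mttp did not overlap either, at 44.2 to 49.3 FPKM in HFHSD+CUR livers and 49.8 to 54.4 FPKM in NCD+CUR livers (-0.17 ± 0.12, adjusted p = 0.458). Groups that did not overlap were found for 11.4% of all genes with HFHSD+CUR higher and for 10.6% with it lower. Both diet comparisons share their livers with the CUR comparisons.

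The contrast of the short HDL genes with the long Apob was large in these libraries. The ratio of Apoa1 to Apob in FPKM was 140, 122 and 139 in HFHSD+CUR livers, against 75.9, 56.9 and 54.6 in HFHSD livers. It was 114, 138 and 157 in NCD+CUR livers, against 67.1, 123 and 60.04 in NCD livers. The CUR livers were clearly apart from the others on HFHSD, and on NCD replicate 2 of the NCD livers lay among the CUR livers for this ratio. The ratio of Apoa2 to Apob was 148, 123 and 163 in HFHSD+CUR livers, against 77.1, 71.5 and 47.0 in HFHSD livers, and 108, 121 and 130 in NCD+CUR livers, against 60.6, 100.3 and 50.9 in NCD livers. These ratios are given as a description with no test.

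The same libraries that leaned to short transcripts had the high ratios, NCD replicate 2 included. On the log2 scale the Apoa1 to Apob ratio differed by 1.11 between HFHSD+CUR and HFHSD, and by 0.62 after the length and GC trend was removed. For Apoa2 to Apob the values were 1.17 and 0.49. On NCD the difference of the Apoa1 to Apob ratio was 0.77, and 0.45 with the trend removed, and that of Apoa2 to Apob was 0.81 and 0.42. Across all tested genes, the median log2 fold change of HFHSD+CUR against HFHSD was 0.30 for transcripts under 1 kb, where 28.0% of genes rose and 1.62% fell, and it declined with length to -0.20 for transcripts over 8 kb, where 6.78% rose and 22.9% fell. Apoa2, Apoc1 and Apoc3, at 0.46, 0.56 and 0.65, lay above the median of 0.30 of their length class, whose middle 50% of genes spans 0.11 to 0.51, and of these only Apoc1 and Apoc3 lay outside that span. Apoc2, of the same class, lay below its median at 0.18. Apoa1, at 0.39, lay above the middle 50% of transcripts of 1 to 2 kb (-0.13 to 0.30). Apob, at -0.72, lay below the lower end of the middle 50% of its class (-0.43), and Mttp, at -0.48, below that of transcripts of 2 to 4 kb (-0.32). The part of RNA quality or library preparation in this trend was not tested.

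**Figure D3:**
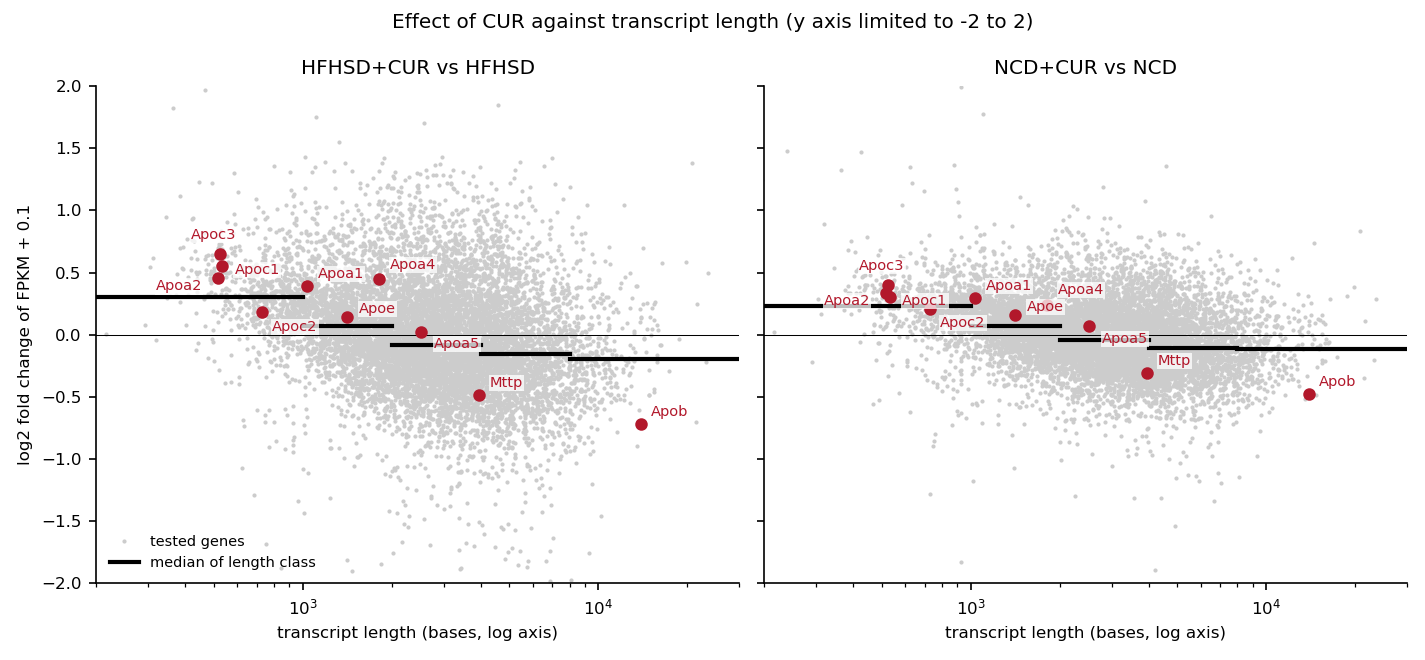
Log2 fold change of FPKM + 0.1 with CUR (vertical axis, shown between -2 and 2) against transcript length in bases (horizontal log axis) for all tested genes (grey), on HFHSD (left) and NCD (right). Black lines give the median of each length class, from 0.30 to -0.20 on HFHSD and from 0.23 to -0.12 on NCD, and the 10 named members are in red. Apob, Mttp and, narrowly on NCD, Apoc2 lie below the black lines and the other members above them in both panels.

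**Figure D4:**
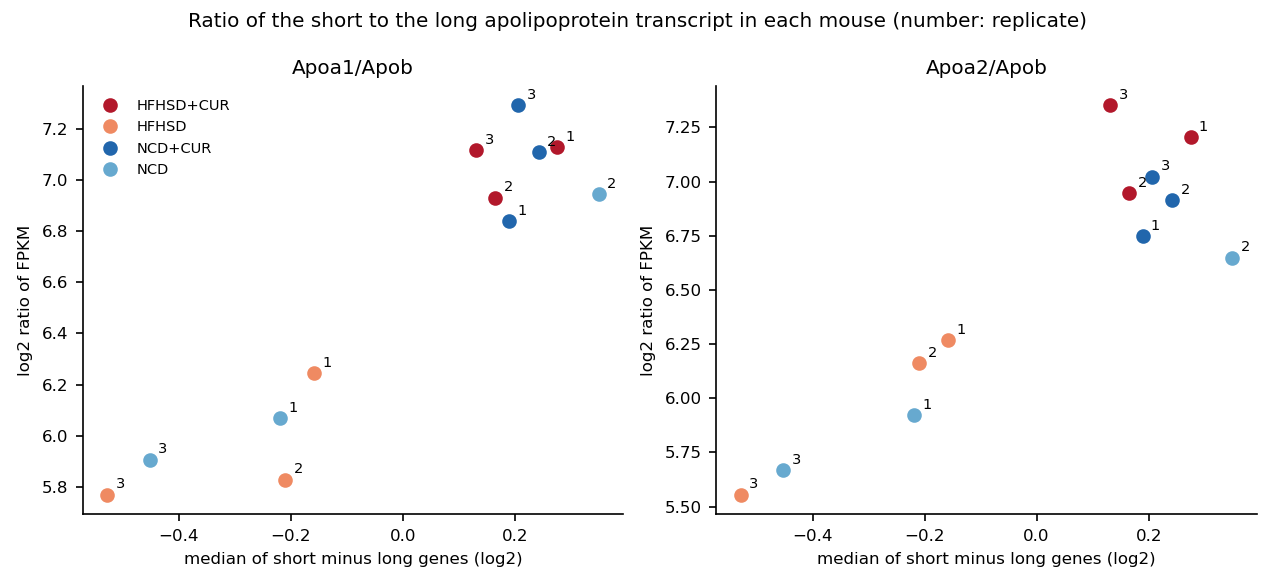
Log2 ratio of Apoa1 (left) and Apoa2 (right) to Apob in each mouse (vertical axis) against the median deviation of short minus long genes in the same library (horizontal axis, log2). Colours are groups and numbers are replicates. NCD replicate 2 sits with the 6 CUR livers at the right, and the other 5 livers without CUR sit at the lower left.

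Other apolipoprotein genes moved in both directions with CUR on HFHSD. Of the 14 tested, 1 rose and 2 fell (13.1% and 17.2% of all genes), with a median log2 fold change of -0.10. Apoc4, a neighbour of Apoc2, was at 2517, 2275 and 2681 FPKM in HFHSD+CUR livers, against 1720, 1937 and 1613 FPKM in HFHSD livers (0.50 ± 0.15, adjusted p = 0.0306). The groups did not overlap, and its transcript is short too (538 bases). With the length and GC trend removed Apoc4 was at -0.05 (adjusted p = 0.768), and of the 14 genes 0 rose and 2 fell (Apom and Clu). Apom, the carrier of sphingosine 1-phosphate on HDL, was at 210, 161 and 88.1 FPKM in HFHSD+CUR livers, against 266, 185 and 273 FPKM in HFHSD livers, and fell (-0.72 ± 0.26, adjusted p = 0.0687) although the groups overlapped and its transcript has 1013 bases. Clu, apolipoprotein J, averaged 906 ± 240 FPKM in HFHSD+CUR livers and 1283 ± 174 FPKM in HFHSD livers and fell too (adjusted p = 0.052). Apoh (-0.08) and Apof (0.03) did not pass the test, nor did Apol7a (-0.15). Without HFHSD+CUR replicate 3 none of the 14 passed.

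Among 24 partners of VLDL assembly and export, 3 rose and 5 fell (13.1% and 17.2% of all genes), with a median of -0.15. Mia2, a receptor that loads large lipoproteins into carriers at the exit sites of the endoplasmic reticulum, averaged 2.85 ± 0.743 FPKM in HFHSD+CUR livers and 19.0 ± 5.28 FPKM in HFHSD livers (log2 fold change -2.69 ± 0.57, adjusted p = 0.0161). Its partner Mia3 (-0.47, adjusted p = 0.025) and Ces1g, a carboxylesterase that affects VLDL secretion (-0.64, adjusted p = 0.0398), fell as well. Arfrp1, a small GTPase needed for VLDL lipidation in the Golgi, rose (0.53, adjusted p = 0.03). The others called, named after their values were seen, were Soat2 (0.29) and Smlr1 (0.37), which rose, and Tor1aip1 (-0.35) and P4hb (-0.37), which fell. Without HFHSD+CUR replicate 3 the counts were 0 and 1, and with the length and GC trend removed 1 rose and 7 fell.

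Of 13 genes for apolipoprotein B quality control and RNA editing, 0 rose and 4 fell (13.1% and 17.2% of all genes), with a median of -0.26. Among them were Syncrip (-0.54, adjusted p = 0.0219), which binds the editing complex, Canx (-0.63, adjusted p = 0.0274), a lectin chaperone, and Vcp (-0.50, adjusted p = 0.0287), the ATPase that pulls proteins out of the endoplasmic reticulum. The transcripts of these 3 genes have 3316 to 9450 bases. Of 13 genes of HDL formation and remodelling, 0 rose and 4 fell (13.1% and 17.2% of all genes), with a median of -0.27. The 4 were Abca1, which lipidates apolipoprotein A-I (-0.54, adjusted p = 0.0309), Scarb1, the HDL receptor (-0.51, adjusted p = 0.0603), Pon3, an HDL-bound lactonase (-0.43, adjusted p = 0.0619), and Lipc, hepatic lipase (-0.27, adjusted p = 0.0764). Without HFHSD+CUR replicate 3, 2 of the quality control genes and 1 of the HDL genes fell, and with the length and GC trend removed 1 rose and 3 fell in quality control and 5 fell in the HDL list.

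Of 12 receptors and uptake genes, 1 rose and 2 fell (13.1% and 17.2% of all genes), with a median of -0.25. Ndst1, which sulfates the heparan sulfate that captures remnants, averaged 5.39 ± 0.885 FPKM in HFHSD+CUR livers and 14.8 ± 4.01 FPKM in HFHSD livers and fell (-1.43, adjusted p = 0.0196), as did Sdc1, the syndecan that carries this heparan sulfate (-0.59, adjusted p = 0.0429). Hspg2, the proteoglycan perlecan, rose (0.70, adjusted p = 0.0784). Of 9 genes of plasma lipolysis, only Lipc fell, and Lpl (0.66), Angptl8, which the table lists as Gm6484 (0.65), and Lipe (-0.23) did not pass (adjusted p = 0.231, 0.242 and 0.353). Without HFHSD+CUR replicate 3, 1 gene of uptake and 0 of lipolysis fell, and 0 rose in both, and with the length and GC trend removed 3 genes of uptake and 1 of lipolysis fell and 0 rose.

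Of 22 regulators of apolipoprotein transcription, 1 rose and 4 fell (13.1% and 17.2% of all genes), with a median of -0.22. Nr5a2, the nuclear receptor LRH-1, fell (-1.01, adjusted p = 0.0134), as did Srebf2, the regulator of cholesterol synthesis (-0.61, adjusted p = 0.0464), Rora (-0.43, adjusted p = 0.0682) and, named after its value was seen, Rxra (-0.38, adjusted p = 0.0784). Mlxipl, the carbohydrate response factor ChREBP, rose (0.58, adjusted p = 0.016). Without HFHSD+CUR replicate 3, 1 rose and 1 fell, and with the length and GC trend removed 1 rose and 6 fell. The 34 other secreted proteins of hepatocytes serve as a comparison. Of these 0 rose and 13 fell (13.1% and 17.2% of all genes), with a median of -0.31. Among those that fell were Itih4 (-0.72, adjusted p = 0.0128), fibronectin (Fn1, -0.92, adjusted p = 0.0134) and Itih3 (-0.55, adjusted p = 0.0141). The count that fell was 12 with the length and GC trend removed, where 14.8% of all genes fell, and 6 without HFHSD+CUR replicate 3. The lists were described by counts and not tested as sets.

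On NCD, 0 genes of each of these 8 lists passed in limma for NCD+CUR against NCD, with 0 to 4 genes of a list at an unadjusted p under 0.05. Of the genes named above, Mia2 was at -1.90 (adjusted p = 0.29), Nr5a2 at -0.59 (adjusted p = 0.301), Mlxipl at 0.49 (adjusted p = 0.29) and Apoc4 at 0.42 (adjusted p = 0.298).

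Some partners of the members differed by diet, and they are named here after their values were seen. For HFHSD against NCD, 2.74% of all genes passed as higher and 1.87% as lower. Over the 8 lists, the genes that passed for HFHSD against NCD numbered 2 of 14 other apolipoproteins (both higher), 4 of 24 assembly partners (3 higher, 1 lower), 1 of 13 quality control genes (higher), 0 of 13 HDL genes (2 at an unadjusted p under 0.05), 2 of 12 uptake genes, 2 of 9 lipolysis genes (1 higher and 1 lower in each), 1 of 22 regulators (lower) and 2 of 34 secreted proteins (both lower). For HFHSD against NCD, Cd36, the fatty acid transporter, averaged 21.9 ± 3.35 FPKM in HFHSD livers and 7.78 ± 2.24 FPKM in NCD livers (log2 fold change 1.51, adjusted p = 0.0212), and Ces1g averaged 142 ± 17.4 FPKM in HFHSD livers and 59.7 ± 15.6 FPKM in NCD livers (1.28, adjusted p = 0.0198). Apol9b rose too (1.14, adjusted p = 0.0288), and Gpihbp1, the anchor of lipoprotein lipase on capillaries, fell (-1.39, adjusted p = 0.0736). Of these 4 genes, Ces1g was the one that passed, as lower, with CUR on HFHSD.

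Some genes followed the members closely over the 12 libraries, as a description with libraries that share the length trend. The genes most like Apob in log2 level were Usp9x, Fn1, Scarb2 and Pzp (Pearson r of 0.973 to 0.987, 12 libraries). Those most like Mttp were Cadps2, Acad11, Stard4 and Slc25a13 (0.969, 0.967, 0.954 and 0.953). Those most like Apoa1 were Use1, Myg1, Rps15 and Gm5617 (0.959, 0.937, 0.933 and 0.931).

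The tissue carried the markers of liver. The summed level of 10 hepatocyte markers was 58556 to 69101 FPKM in HFHSD+CUR livers and 67893 to 83545 FPKM in HFHSD livers, and it was 57342 to 71739 FPKM in NCD+CUR livers and 60534 to 77784 FPKM in NCD livers. Of the hepatocyte markers, 0 rose and 3 fell with CUR on HFHSD, where 13.1% of all genes rose and 17.2% fell. The sums of 10 endothelial markers were 36.0, 43.7 and 90.2 FPKM in HFHSD+CUR livers and 31.9 to 49.7 FPKM in HFHSD livers, with replicate 3 the only CUR liver above the HFHSD range and 2 markers up with CUR (1 without that mouse), and those of 11 macrophage markers were 207 to 414 FPKM in HFHSD+CUR livers and 183 to 336 FPKM in HFHSD livers, with none past the test. Of 4 tested B cell markers 3 rose with CUR on HFHSD, against 13.1% of all genes, and 0 did without HFHSD+CUR replicate 3. The summed level of the 5 B cell markers in the table was 102 to 186 FPKM in HFHSD+CUR livers and 69.6 to 121 FPKM in HFHSD livers. Of the stellate cell, cholangiocyte and exocrine pancreas lists 1 marker each rose, 1 of 6 erythroid markers fell, and none of the T and NK cell, enterocyte or adipocyte markers passed. By diet, 6 of 10 endothelial markers fell (1.87% of all genes), with sums of 31.9 to 49.7 FPKM in HFHSD livers and 78.3 to 84.0 FPKM in NCD livers. The part of these shifts in the values of the members was not tested. The intestine also makes Apob, Apoa1, Apoa4 and Mttp, and of 5 enterocyte markers in the table Alpi and Cdx2 were at 0 in all 12 libraries, Lct in 10 of them, and Vil1 was at most 0.26 FPKM. Fabp2, at 72.5 to 138 FPKM, was the exception. In whole liver, fewer cells of a type and less RNA per cell cannot be told apart.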

How the data were processed

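Liver RNA of 12 mice (4 groups of 3) was sequenced by the authors from stranded TruSeq mRNA libraries. Per the labels, the authors aligned reads with TopHat2 2.0.13 to mm10 and computed the deposited FPKM values with Cuffdiff 2.2.1. FPKM is therefore relative to transcript length and mapped fragments, and counts per gene are unknown. Other deposited tables hold the authors' own group comparisons, gene ontology enrichment and pathway scores, and were not used. Values were taken as log2(FPKM + 0.1) for the genes with a mean of 1 FPKM or above, so fold changes of low genes are understated. A model of the 4 groups was fitted in limma 3.58.1 (R 4.3.3) with trended, robust variances, for 5 comparisons. All adjusted p are from limma with Benjamini-Hochberg adjustment, with calls under 0.1. The adjustment ran over all 10545 genes in the main fit. In other settings it ran over the genes tested there, 10476 with the length and GC trend removed. Members and lists were chosen with earlier results of these data known. Named genes were the 10 members, the genes of lowest p for HFHSD+CUR against HFHSD in every list (at most 4), Apoc4, Apof, Apoh and Apom, and the 4 genes most correlated with Apoa1, Apob and Mttp, of which 3 list genes are not reported here. The length and GC trend was removed per library by loess (span 0.4) with GENCODE vM21 transcripts, known for 99.3% of tested genes. The replicate block took samples of a diet with the same number in the labels as pairs. Deviations from the group means correlated at 0.156 to 0.350 for HFHSD+CUR with HFHSD and at 0.300 to 0.527 for NCD+CUR with NCD. Between diets the values were -0.07 to 0.236, a range that overlaps that on HFHSD, and pairs of unlike number were not compared. The value of 0.527 was for replicate 3, the mice labelled 107 weeks. The labels do not say what a number marks. Alternatives were other pseudocounts, filters, normalizations and variance settings, the replicate block, array weights, age as a covariate and leaving out each mouse. The list counts without the trend and without HFHSD+CUR replicate 3 were chosen after seeing the data. The scripts were tested on simulated data.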

Additional observations from a re-analysis of the deposited data

How the results depend on the processing

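Of 1260 alternative log2 fold changes of the 10 members over 26 settings, 1163 kept their direction and side of the threshold, 62 changed sign, 21 lost a call (3 of them with a change of sign) and 18 gained one (1 with a change of sign). Most of the 1260 belong to comparisons in which the member had no call in the main fit. All 21 lost calls were of Apoa1, Apoa2, Apoc1 and Apoc3 with CUR on HFHSD, while Apob and Mttp kept theirs in all 26 settings. Other pseudocounts and filters, fits of the compared groups alone and fits without trended or robust variances left 6 members called with CUR on HFHSD and 0 on NCD. The share of all genes called on HFHSD was 30.3% with either other pseudocount, 17.4% without a filter and 33.2% at a mean of at least 5 FPKM. With the length and GC trend removed, 2 members were called on HFHSD (26.2% of all genes), and 3, with Apoc2 as lower, with the replicate block as well (42.4%). For HFHSD+CUR against HFHSD the values were then -0.019 for Apoa2, -0.065 for Apoa5, -0.21 for Apoc2 and -0.11 for Apoe, for NCD+CUR against NCD -0.040 for Apoc2 and -0.016 for Apoe, and the difference of the CUR effects was -0.090 for Apoa2, all with or without the block. Without the block, HFHSD against NCD gave -0.015 for Apob and -0.078 for Mttp. The log2 ratio to Apob differed by 0.62 for Apoa1 and 0.49 for Apoa2 on HFHSD and by 0.42 for Apoa2 on NCD. Quantile normalization, which gives each rank the same value in every library, called 3 members on HFHSD (29.7% of all genes). On HFHSD it gave -0.11 for Apoa5, -0.0080 for Apoc1 and -0.15 for Apoe. On NCD it gave -0.074 for Apoa5, -0.11 for Apoc1 and -0.13 for Apoe, for HFHSD against NCD -0.053 for Mttp, and a difference of CUR effects of -0.084 for Apoa2. The replicate block within each diet called 3 members on NCD (8.16% of all genes), against 0 without it, and changed no other call of a member, with 45.7% of all genes called on HFHSD against 30.3%, and a block over all libraries changed none. Array weights called 6 members on NCD (33.2% of all genes, against 0% without weights) and 1 for HFHSD+CUR against NCD+CUR (Apoc1, with 12.9% of all genes), with differences of CUR effects of -0.012 for Apoa1, -0.0013 for Apoa4 and 0.015 for Apoc2. Age as a covariate called 1 member for HFHSD against NCD (Apoa4) and 2 for HFHSD+CUR against NCD+CUR (Apoa4 and Apoc1), with 19.3% and 15.8% of all genes called, against 4.61% and 3.61% without it, and gave -0.0054 for Apoa2 by diet. Leaving out 1 mouse at a time, 3 to 6 members were called on HFHSD and 0 to 4 on NCD. The shares of all genes called without HFHSD+CUR replicate 3 and without NCD replicate 2 are given above. For HFHSD+CUR against HFHSD, Apoa5 ranged between -0.12 and 0.15. For NCD+CUR against NCD, Apoa4 ranged between -0.32 and 0.76, Apoa5 between -0.0044 and 0.17 and Apoc2 between -0.016 and 0.40. For HFHSD against NCD, Apoa2 ranged between -0.11 and 0.11, Apoa5 between -0.27 and 0.0011, Apob between -0.087 and 0.26, Apoc3 between -0.31 and 0.091 and Mttp between -0.050 and 0.095. For HFHSD+CUR against NCD+CUR, Apoc3 ranged between -0.0012 and 0.27. The difference of CUR effects ranged between -0.038 and 0.18 for Apoa1, -0.31 and 0.76 for Apoa4, -0.19 and 0.082 for Apoa5, -0.22 and 0.20 for Apoc2 and -0.12 and 0.088 for Apoe. The cause of these changes was not tested. With no counts in the table, the limit set by depth was not estimated, and 3 mice a group limit the precision.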
